A study of Sorghum bicolor with 12 samples.

Results

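A genotype by drought interaction is the part of the drought response that differs between genotypes. For each transcript it was taken as the log2 ratio of drought-stressed (DS) to well-watered (WW) plants in genotype IS22330 minus the same ratio in genotype IS20351, so that a positive value means that the transcript stood higher under drought, relative to its own control, in IS22330 than in IS20351. The 4 group tables were joined by transcript identifier, and transcripts were kept at an RPKM (reads scaled to transcript length and library total) of at least 1 in the mean of at least 1 group. This rule kept 19313 of 27989 transcripts (69%), of which 19309 could be tested. A transcript was described as opposite, or as responding in 1 genotype only, by the rules given where these classes first appear.

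IS20351, described by the study as drought sensitive, and IS22330, described as tolerant, are sorghum (Sorghum bicolor) accessions of the durra race that were grown in pots in the open. By the study's protocol the WW plants were kept near a fraction of transpirable soil water (FTSW) of 0.7. The DS plants were dried to 0.2 and held there for 9 days, with all plants 42 days old at harvest. The study reports a higher FTSW for WW plants of IS22330 than of IS20351. It also reports a greater fall in the relative water content of the leaves under drought in IS20351. RNA came from the leaf meristem by the extraction protocol, whereas the samples are labelled as leaf. Each of the 4 groups (IS20351 WW, IS20351 DS, IS22330 WW and IS22330 DS) had 3 biological replicates. Sensitive and tolerant sorghum are each represented by 1 accession, so sensitivity cannot be told apart from any other difference between the accessions. In such bulk samples fewer cells of a type and less RNA per cell cannot be told apart either. Markers of the meristem were not checked, because the identifiers could not be matched to descriptions. Chlorophyll-binding and photosystem transcripts, which mark green leaf, were present in the WW libraries.

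Drought closes stomata and limits the supply of carbon dioxide, and leaves commonly lower the expression of chlorophyll-binding proteins, photosystem subunits and Calvin cycle enzymes while absorbed light feeds the formation of reactive oxygen, which peroxidases and other antioxidant enzymes remove. Secondary metabolism supplies lignin, flavonoids, terpenes and the waxes of the cuticle, which line cell walls or limit water loss through the epidermis. Plants that differ in drought tolerance can differ in the timing or the strength of these programmes, and an interaction measures that difference directly, where a list of responses in each genotype does not.

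The 12 libraries held 26398759 to 28680141 unique reads on transcripts, and within a group they are named a, b and c in order of their totals, the smallest first. Library c of IS22330 DS stood apart. Whether its plant was under the same stress as the other DS plants cannot be told from the files, and this bears on every DS mean and interaction that includes it. Its scaled log2 reads correlated across transcripts at r = 0.932 to 0.94 with the WW libraries of its genotype and at 0.87 to 0.886 with the other DS libraries, which correlated at 0.971 with each other. DS libraries a and b correlated at 0.855 to 0.934 and at 0.882 to 0.945 with the same WW libraries. WW library b of IS22330 correlated at 0.932 to 0.945 with the DS libraries and at 0.907 to 0.95 with the other WW libraries. The quality weight of library c of IS22330 DS in limma voom was 0.219, the lowest of the 12. All 35 transcripts that reached 10 RPKM in each WW library of IS22330 without a read in those of IS20351 had reads in it, at a median of 23.2 RPKM, so its genotype matched its label. Of the 13 transcripts that met the reverse condition, at 10 RPKM in each WW library of IS20351 without a read in those of IS22330, it had reads in 1, and no more than 6 reads. The results are therefore given with and without this library.

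No transcript passed the interaction test. The edgeR quasi-likelihood test with Benjamini-Hochberg adjustment over 19309 transcripts gave 0 calls (0%) at the study's thresholds (adjusted p no higher than 0.001, log2 value of 2 or more in size) and 0 calls (0%) at an adjusted p under 0.05. The smallest adjusted p was 0.414. At an unadjusted p under 0.05 there were 1185 transcripts (6.14%), of which 638 (3.3%) had a positive and 547 (2.83%) a negative interaction. Without library c of IS22330 DS these were 365 (1.89%) and 596 (3.09%), 4.98% together, and the smallest adjusted p was 0.075. DESeq2 called 49 transcripts at an adjusted p under 0.05 and 6 at the study's thresholds, while limma, and limma voom with quality weights, called 0. In the same edgeR fit 245 transcripts rose (1.27%) and 454 fell (2.35%) under drought in IS20351 at an adjusted p under 0.05 (3.62% together), and 0 (0%) changed in IS22330. At an unadjusted p under 0.05 the shares were 12.7% and 14.1% in IS20351 (26.8% together) and 5.53% and 5.65% in IS22330 (11.2% together). Without library c the adjusted counts were 1167 (6.04%) and 1743 (9.03%) in IS20351, 15.1% together, and 227 (1.18%) and 561 (2.91%) in IS22330, 4.08% together. The 699 calls of IS20351 also became 0 when any WW library, DS library a or DS library c of IS20351 or WW library a or c of IS22330 was left out. A count of 0 in IS22330 beside 699 in IS20351 was thus no test of a difference between the genotypes, and the interaction test itself found none past the threshold.

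Most of the transcripts that responded in IS20351 had the same sign in IS22330. Of the 245 that rose in IS20351, 219 had a positive log2 ratio in IS22330 (226 without library c), where 50.6% of all tested transcripts did. Their median log2 ratio was 1.75 in IS20351 and 0.592 in IS22330, and 0.77 without library c. Of the 454 that fell, 424 were negative in IS22330 (440 without library c), beside 48.7% of all tested. Their medians were -1.67 in IS20351 and -0.691 in IS22330, and -1.11 without library c. The transcripts were chosen by their response in IS20351, so that part of the smaller size in IS22330 follows from the choice, and no test was made of it.

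**Figure D1:**
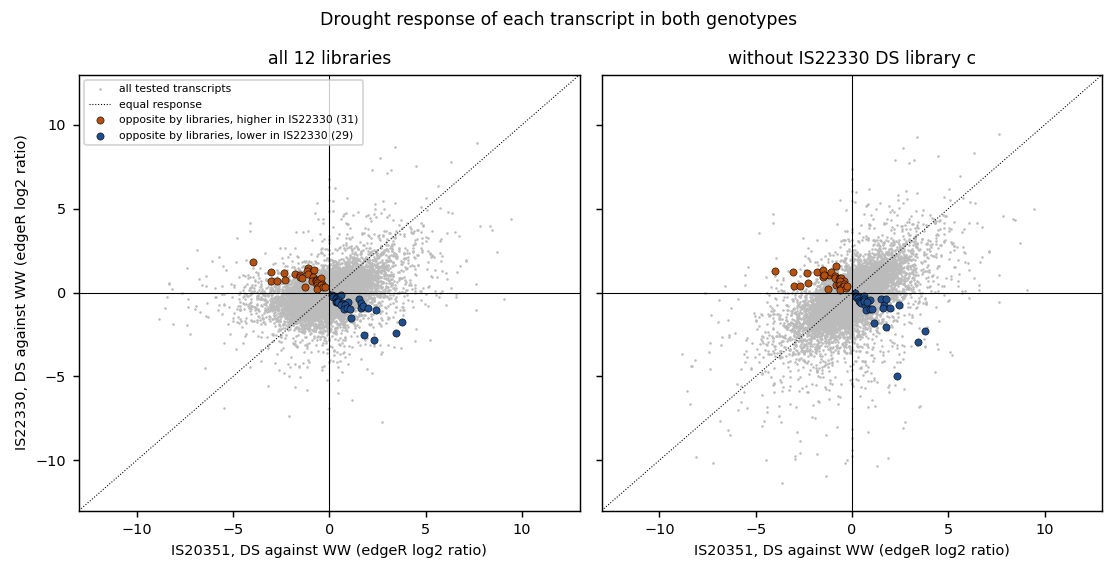
Drought response (edgeR log2 ratio, DS against WW) of all 19309 transcripts in IS20351 (x axis) and in IS22330 (y axis), fitted with all libraries (left) and without IS22330 DS library c (right, with the IS20351 ratios of the full fit). Coloured points are the 60 transcripts whose libraries moved in opposite directions, and by their rule they lie above 0 in 1 genotype and below 0 in the other.

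Few transcripts moved in opposite directions. They were taken as those whose 3 DS libraries all lay above the 3 WW libraries in 1 genotype and all below them in the other, on reads scaled by TMM factors. In IS20351 the DS libraries lay above the WW libraries for 17.6% of the transcripts and below for 18.4% (36.1% together), and in IS22330 for 7.48% and 8.04% (15.5% together). Of the 1245 transcripts with separated libraries in both genotypes, 1185 moved the same way and 60 (4.82%) in opposite ways. Transcripts higher under drought in IS22330 and lower in IS20351 numbered 31 (0.161% of those tested), and those lower in IS22330 and higher in IS20351 numbered 29 (0.15%). Of 3 libraries, all can lie beyond 3 others without any response, and the rule used these same libraries, so neither the counts nor the p values of the members are evidence of their own.

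The shifts of these 60 transcripts were small for the most part. The 31 had a median log2 ratio of -0.868 in IS20351 and 0.756 in IS22330, and the 29 had medians of 0.789 and -0.682. Only 14, 8 of the former and 6 of the latter, changed at least 2-fold in both genotypes. The interaction ranged from 0.28 to 5.87 in size with a median of 1.67, beside 0.444 over all transcripts tested. Their highest group mean lay between 1.22 and 337 RPKM with a median of 7.19, and for 24 of them it reached 10 RPKM. With any 1 of the 12 libraries left out the median size was 1.55 to 1.81, and the sign is fixed by the rule. Without library c of IS22330 DS the median interaction of the 31 was 1.74, as with it, and that of the 29 was -1.39 against -1.54.

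The single transcript of the 60 in the study's pathway lists was Sb03g005860.1, annotated there as the O-methyltransferase ZRP4 of maize, a member of the enzymes that methylate phenolic compounds. In IS20351 it was at 8.57, 4.88 and 9.18 RPKM in the WW libraries a, b and c and at 0.912, 1.63 and 2.17 in the DS libraries. In IS22330 it was at 5.08, 3.60 and 6.29 RPKM in WW and at 7.85, 15.5 and 9.55 in DS plants. Each DS library was below every WW library in IS20351 and above every WW library in IS22330, and library c of IS22330 DS lay between the other DS libraries. By edgeR it fell in IS20351, by 2.35 on the log2 scale (SE 0.42, adjusted p = 0.0401), while in IS22330 the ratio of 1.15 (SE 0.40) had an adjusted p of 0.403. The interaction was 3.50 (SE 0.58) with an unadjusted p of 8.2e-05, the third smallest of all, and an adjusted p of 0.414, and it was 3.48 without library c.

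The smallest p of the interaction belonged to Sb05g024100.1, whose function no source used here gives. It was at 12.5, 6.72 and 5.57 RPKM in WW and 0.62, 1.24 and 1.35 in DS libraries of IS20351, and at 6.74, 7.46 and 5.42 in WW and 8.43, 9.72 and 12.2 in DS libraries of IS22330. It fell in IS20351 with a log2 ratio of -3.03 (edgeR adjusted p = 0.0401), while its ratio in IS22330 was 0.68 (adjusted p = 0.513), and the interaction of 3.71 (SE 0.57, 3.43 without library c) had an adjusted p of 0.414. The next gene identifier among those tested, Sb05g024105.1, was at 8.53, 4.72 and 3.14 RPKM in WW and 0.103, 0.804 and 0.198 in DS libraries of IS20351, and at 0.20, 1.16 and 3.09 in WW and 3.49, 4.28 and 7.06 in DS libraries of IS22330. Its interaction was 5.79 (SE 1.30, adjusted p = 0.754) and 5.29 without library c, on 168, 11, 46 and 149 reads over the 3 libraries of IS20351 WW and DS and of IS22330 WW and DS. Whether these neighbours share sequence, and so reads, was not tested. For Sb06g029640.1 the interaction was 4.26 (SE 0.92) and 4.30 without library c of IS22330 DS, and WW library c of IS20351, at 16.8 RPKM, stood above the other WW libraries at 4.61 and 4.70, with 0.405 to 2.36 RPKM in the DS libraries. In IS22330 it was at 1.55 to 2.63 RPKM in WW and 3.60 to 5.52 in DS plants.

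In the other direction the largest interactions belonged to low transcripts. Sb04g034290.1, with an interaction of -5.87 (SE 1.75, adjusted p = 0.797) and of -6.36 without library c of IS22330 DS, was at 0.0999, 0.0486 and 0.528 RPKM in WW and 0.835, 6.94 and 0.848 in DS libraries of IS20351, and at 0.806, 1.46 and 3.12 in WW and 0, 0.502 and 0.451 in DS libraries of IS22330. One DS library, b, held most of the reads of IS20351. Sb09g028430.1 had an interaction of -5.55 (SE 1.31, adjusted p = 0.754), and of -6.09 without library c of IS22330 DS. It was at 0, 0.254 and 0.0359 RPKM in WW against 0.87 to 2.18 in DS libraries of IS20351. In IS22330 it was at 0.801 to 1.42 in WW against 0.15 to 0.412 in DS libraries. A transcript at a higher level, Sb04g005350.1, was picked after its values were seen. It was at 1.44, 6.19 and 4.99 RPKM in WW and 30.3, 20.1 and 23.2 in DS libraries of IS20351, where it rose with a log2 ratio of 2.44 (edgeR adjusted p = 0.041), and at 25.0, 18.6 and 15.6 in WW and 14.4, 10.3 and 4.37 in DS libraries of IS22330, where the ratio was -1.03 (adjusted p = 0.461). Its interaction was -3.47 (SE 0.72), and -3.17 without library c. The DS libraries of IS20351 and the WW libraries of IS22330 were the high ones.

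**Figure D2:**
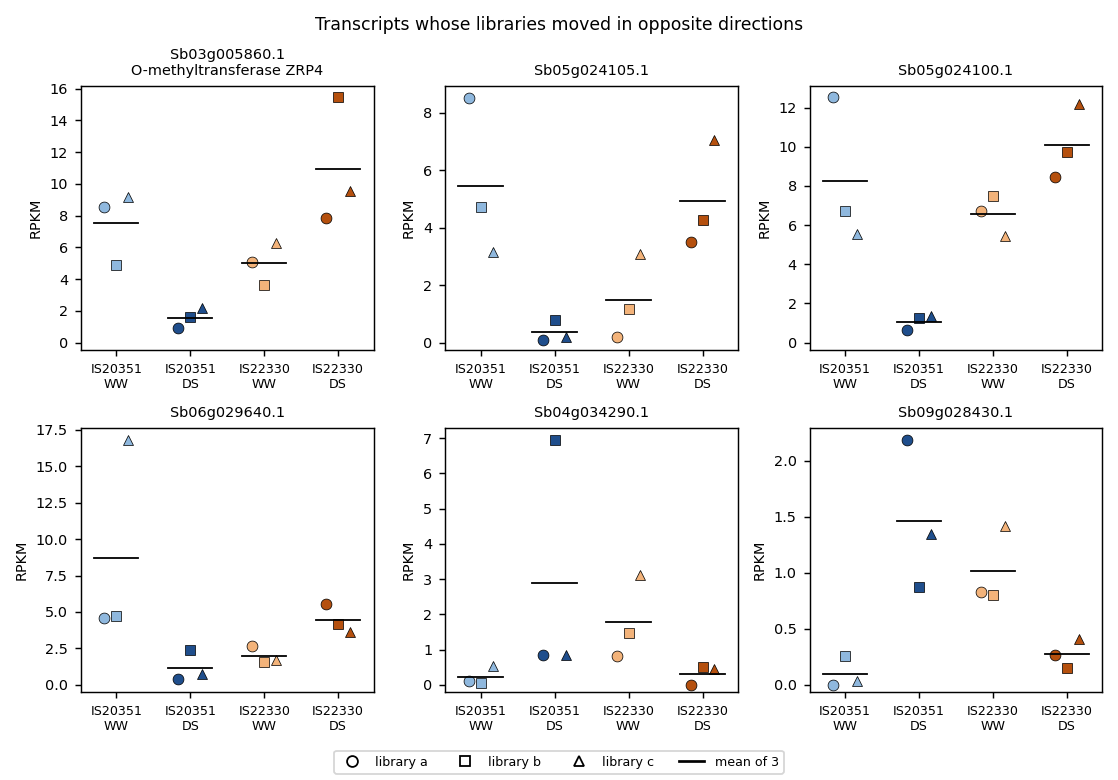
RPKM (y axis) of 6 transcripts in each of the 12 libraries by group (x axis), with circles for library a, squares for b, triangles for c and a line for the mean of 3. In the first 4 panels the DS points lie below the WW points in IS20351 and above them in IS22330, in the last 2 panels the reverse, and in Sb04g034290.1 library b of IS20351 DS, at 6.94 RPKM, stands far above the others.

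By the size of the deposited group means alone, with 0.1 RPKM added before taking logs, the interaction reached 2 in size for 1034 transcripts, 435 positive (2.25%) and 599 negative (3.1%), 5.36% together. This is a count without a test, and only 261 of the 1034 kept that size whichever library was left out. Without library c of IS22330 DS, 377 were under 2 and 49 changed sign, the most of any library for both counts. A ratio of at least 4-fold in opposite directions was found for 15 transcripts, 4 higher in IS22330 (0.0207%) and 11 lower in IS22330 (0.057%), and only 2 of the 15 also had separated libraries in both genotypes. The largest of all, Sb09g025730.2, annotated as oxygen binding, was at 46.3, 38.7 and 40.6 RPKM in WW and 0.384, 0.792 and 0 in DS libraries of IS20351. The libraries of IS22330 had it at 79.8, 49.7 and 55.4 RPKM in WW libraries, and at 0, 0.645 and 898 under drought (libraries a, b and c in turn). Library c alone made the response of IS22330 positive, and the interaction of 9.39 (SE 3.21, adjusted p = 0.797) was -0.78 without it. Terpene synthase 6 (Sb07g005130.1), which makes volatile or defensive terpenes, had an interaction of -7.003 (SE 2.44). It was at 0 to 0.258 RPKM in WW and 0.706 to 3.43 in DS libraries of IS20351, and at 35.5, 0.194 and 0.431 in WW and 0.667, 3.04 and 0.199 in DS libraries of IS22330, so that WW library a set its direction there. The interaction was -1.76 without that library and -6.52 without DS library c.

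A response in IS20351 only was taken as separated libraries and a log2 ratio no smaller than 2 in size in IS20351 and a ratio under 0.5 in size in IS22330. The rule was met by 348 transcripts, 122 with higher (0.632%) and 226 with lower (1.17%) levels under drought. Per library, the 226 lower transcripts had medians of -2.71, -2.16 and -2.59 in DS libraries of IS20351, given as log2(RPKM + 0.1) minus the WW mean of the genotype. In IS22330 the DS medians were -1.51 in library a, -1.27 in library b and 0.934 in library c. Libraries a and b thus lay below the WW plants and library c above them, and their mean met the rule. The rule let in a fall in a and b only with a higher c, so these sides are in part fixed by it. Without library c, 157 of the 226 had a fitted ratio of -1 or lower in IS22330, 35 still met the rule of under 0.5, and the median ratio of IS22330 moved from -0.111 to -1.47. Applied anew to the fit without library c, the rule was met by 136 transcripts in both directions. The 122 higher transcripts had DS medians of 0.681, 0.521 and -1.24 in libraries a, b and c of IS22330, so that library c again lay on the other side of the WW plants than a and b. Without it 68 were under 0.5 in size, 2 reached 1 in the same direction and 3 in the opposite one, and the median ratio moved from 0.0682 to 0.409.

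Of the 153 tested transcripts in the pathway lists 26 were among the 226 lower ones, where 1.17% of all tested transcripts were. They were 8 of 19 of the light reactions, 6 of 41 of lipid metabolism, 5 of 18 antioxidant, 4 of 56 of secondary metabolism, 2 of 9 of the Calvin cycle and 1 of 10 of carbon metabolism. The study drew these lists from its own drought calls on the same samples. A share above that of all tested transcripts therefore follows in part from the choice. Library c was the highest of the 3 DS libraries of IS22330 in 26 of 26, against 29.2% of all tested transcripts. Without it the ratio of IS22330 was at or under -1 in 21 of 26 and within 0.5 of 0 in 0 of 26. The rule asked for an IS22330 ratio under 0.5 in size. A transcript that fell in libraries a and b could thus enter only with a higher c. These counts are therefore no evidence of their own. Sb02g035610.1, the ferredoxin-NADP reductase-binding protein that anchors the last step of electron transport at the thylakoid, was at 2693, 1547 and 1869 RPKM in WW and 117, 105 and 332 in DS libraries of IS20351. The libraries of IS22330 had it at 1220, 571 and 740 in WW libraries and at 138, 129 and 2066 in DS libraries. The interaction was 3.59 (SE 1.42) with all libraries and 0.78 without library c. Sb03g027040.1, a chlorophyll a-b binding protein of the light-harvesting antenna, was at 173 to 312 RPKM in WW and 16.9 to 40.4 in DS libraries of IS20351, and at 32.5 to 123 in WW and 20.4, 14.6 and 192 in DS libraries of IS22330. Its interaction went from 3.58 (SE 1.30) to 1.22. Sb02g037410.3, a transcript of the photosystem I antenna protein LHCA2, fell in IS20351 (log2 ratio -3.32, edgeR adjusted p = 0.0484) and kept a positive interaction without library c, 2.49 against 3.29 (SE 1.08), at 0.439 to 1.07 RPKM in WW and 0.479 to 1.30 in DS libraries of IS22330. Another transcript of the same gene, Sb02g037410.2, was picked after its values were seen. Its interaction of 1.16 (SE 1.42) turned to -1.51 without library c, at 1.785 RPKM or less in every library.

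Of the same 153 transcripts 6 were among the 122 higher ones, beside 0.632% of all tested. They were 3 of 56 of secondary, 2 of 41 of lipid and 1 of 10 of carbon metabolism. Here too the share follows in part from the choice of the lists on these samples. CER1 (Sb04g026320.1), an enzyme of wax alkane synthesis, was at 0.103, 0.893 and 0.0746 RPKM in WW and 3.50, 1.04 and 6.14 in DS libraries of IS20351, and at 0 to 0.261 in all 6 libraries of IS22330. In IS20351 its log2 ratio of 3.29 had an edgeR adjusted p of 0.137, and in IS22330 the ratio was 0.28. Laccase 14 (Sb04g027860.1), of a family that polymerizes lignin, was at 0.164 to 0.964 RPKM in WW and 2.97, 12.7 and 1.41 in DS libraries of IS20351, while in IS22330 the values of 0.419 to 3.99 in WW and 0.0821 to 2.96 in DS plants overlapped. Dihydroflavonol-4-reductase (Sb02g028590.1), of anthocyanin synthesis, was at 0.0804 to 0.309 against 0.883 to 1.96 RPKM in IS20351 and overlapped in IS22330. Hexokinase 1 (Sb09g005840.1), which phosphorylates glucose, was at 0.341 to 3.42 against 4.76 to 12.3 RPKM in IS20351, but ranged from 0.725 to 17.8 in DS plants of IS22330 and from 1.80 to 15.1 in WW plants. A ratio near 0 there came with a wide spread and is no sign of a stable level. None of these 4 passed the test in IS20351 or for the interaction.

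A response in IS22330 only, with the same rule and the genotypes exchanged, was met by 36 transcripts, 11 higher (0.057%) and 25 lower (0.129%), none of them in the pathway lists. The count was 118 without WW library b and 122 without DS library c of IS22330. Of the 11, 4 had at most 3 reads in the 6 libraries of IS20351, so that no response could be seen there, and 1 of the 25 was in the same position. Their medians in the DS libraries of IS22330, a to c, were 2.38, 2.52 and 1.47 for the 11 and -2.16, -1.69 and -1.96 for the 25, and their shared direction is fixed by the rule. The extremes were low transcripts. Sb02g023765.1 had 0 reads in all 6 libraries of IS20351, which allows up to 3 reads in a group by counting error, and was at 0, 0 and 0.16 RPKM in WW and 5.46, 3.30 and 0.247 in DS libraries of IS22330. Sb10g003270.1 had reads only in the DS libraries of IS22330, at 0.804, 2.11 and 0.10 RPKM. Sb02g010480.1 was at 5.28, 0.743 and 1.67 RPKM in WW and 0, 0.287 and 0 in DS libraries of IS22330, and at 0 to 0.386 in all those of IS20351. Sb01g049390.1 was at 2.74, 0.331 and 1.90 RPKM in WW and 0.0228, 0.205 and 0 in DS libraries of IS22330, and at 0.34 or less in IS20351.

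**Figure D3:**
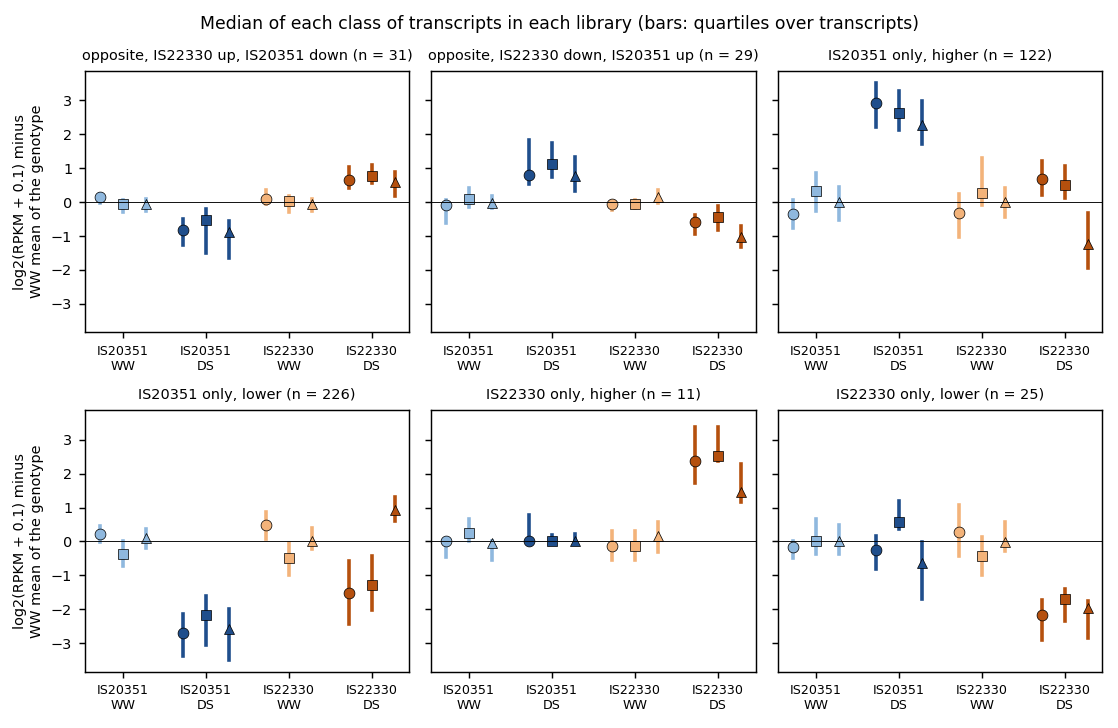
Median over the transcripts of each class, with bars for the quartiles over transcripts, in each of the 12 libraries (x axis, by group; circle a, square b, triangle c), as log2(RPKM + 0.1) minus the WW mean of the same genotype (y axis). Among the 226 transcripts lower in IS20351 only the IS22330 DS medians are -1.51, -1.27 and 0.934, and among the 122 higher ones 0.681, 0.521 and -1.24, while the side of the DS medians is fixed by the rule in both genotypes for the opposite classes and in the responding genotype for the others. In the genotype without a response the rule holds the fitted ratio under 0.5 in size, which ties its DS libraries to each other.

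The study's pathway lists, chosen by its authors on these same samples and so no independent evidence of a direction, were compared by their counts and medians. Beside the counts of list members at an unadjusted p under 0.05 stand the shares of all tested transcripts, 3.3% positive and 2.83% negative, and without library c 1.89% and 3.09%. The 19 tested transcripts of the light reactions, which capture light and move electrons through the photosystems, had a median interaction of 1.85, with 7 positive and 0 negative at an unadjusted p under 0.05. Without library c of IS22330 DS the median was 0.50, with 1 positive and 0 negative, beside -0.0115 and -0.0356 over all tested transcripts with and without the library. Over the leave-outs of the other 11 libraries the median stayed between 1.73 and 2.25. The light reaction median was -2.53 in IS20351, and in IS22330 -0.296 with library c and -1.98 without it. At an edgeR adjusted p under 0.05, 2 of the 19 fell and 1 rose in IS20351 (2.35% and 1.27% of all tested) and 0 changed in IS22330. In the fit without library c, 14 fell and 3 rose in IS20351 (9.03% and 6.04% of all tested), and 11 fell and 2 rose in IS22330 (2.91% and 1.18%). Sb03g027030.1, another chlorophyll a-b binding protein, had the largest interaction of the list, 4.89 (SE 2.27), which was -1.50 without library c, with DS libraries of IS22330 at 0.162, 0.406 and 57.5 RPKM and WW libraries at 1.18 to 20.1.

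The 9 transcripts listed for the Calvin cycle, which fixes carbon dioxide, had a median interaction of 1.90, which was -0.235 without library c. At an unadjusted p under 0.05, 1 of the 9 was positive and 0 negative with library c (3.3% and 2.83% of all tested), and likewise without it (1.89% and 3.09%). In both fits this was Sb01g021920.1, which the list annotates as a putative chitinase 2. The RuBisCO activator transcript Sb05g027880.1, of a protein that keeps the carbon-fixing enzyme active, was at 0.0412, 2.18 and 0 RPKM in WW and 40.1, 96.9 and 3.78 in DS libraries of IS20351, and at 0.0415, 13.9 and 5.76 in WW and 41.5, 33.9 and 0.0413 in DS libraries of IS22330. The DS libraries lay above the WW libraries in IS20351, whereas in IS22330 library c was among the lowest of both groups. Its interaction was -3.95 (SE 2.75) and -3.37 without library c, and ranged from -8.96 without WW library b of IS20351 to -2.72 without WW library b of IS22330. The putative chitinase 2 transcript Sb01g021920.1, of a family that cleaves chitin, was at 2.92 to 13.2 RPKM in WW and 0.333 to 1.33 in DS libraries of IS20351 and at 1.21 to 3.10 in WW and 2.13, 1.89 and 6.59 in DS libraries of IS22330. Its interaction was 3.84 (SE 1.08, unadjusted p = 0.0045, adjusted p = 0.797) and 2.83 without library c. The 18 antioxidant transcripts had a median of 2.24, which was -0.31 without library c and 1.97 to 2.72 without each of the other libraries. Of the 18, 2 were positive at an unadjusted p under 0.05 (3.3% of all tested), and 0 were without library c (1.89%). In IS20351 1 of the 18 rose and 0 fell at an edgeR adjusted p under 0.05 (1.27% and 2.35% of all tested), and in the fit without library c 4 rose and 11 fell there (6.04% and 9.03%), and 1 rose and 5 fell in IS22330 (1.18% and 2.91%).

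The lists of secondary, lipid and carbon metabolism had negative median interactions with and without library c, of which that of secondary metabolism was the lowest. Of its 56 tested transcripts, of 67 listed, 35 had a negative interaction, and 43 without library c. The median was -1.46 with and -1.16 without library c, and lay between -1.82 and -0.925 over all leave-outs. At an unadjusted p under 0.05, 10 were negative and 4 positive (2.83% and 3.3% of all tested), and without library c 7 and 1 (3.09% and 1.89%). Leaving out WW library a of IS22330 instead gave 5 negative and 7 positive, beside 580 negative and 641 positive of all 19309 tested. In IS20351 6 of the 56 rose and 3 fell at an edgeR adjusted p under 0.05 (1.27% and 2.35% of all tested). The list's median drought ratio was 0.527 in IS20351 and -0.682 in IS22330, and -2.11 in IS22330 without library c. Cinnamoyl-CoA reductase CCR1 (Sb10g005700.1), an enzyme of the lignin branch, was at 0.142, 0.322 and 0.432 RPKM in WW and 0.568, 1.82 and 1.39 in DS libraries of IS20351, and at 1.91, 0.0922 and 2.42 in WW and 0.238, 0.19 and 0.355 in DS libraries of IS22330. The DS libraries were above the WW libraries in IS20351, while in IS22330 WW library b lay below all of the DS libraries. The interaction was -4.34 (SE 1.31, unadjusted p = 0.0068, adjusted p = 0.797), -4.76 without library c, and ranged from -4.90 to -3.80 over the leave-outs. A second CER1 transcript, Sb06g022320.1, was at 0.0328, 0.0638 and 0.30 RPKM in WW and 0.463, 0.449 and 0.721 in DS libraries of IS20351, and at 2.35, 0.464 and 0.416 in WW and 0, 0.0329 and 0.395 in DS libraries of IS22330. Its interaction was -4.65 (SE 1.83) with all libraries, -7.87 without library c of IS22330 DS and from -7.87 to -3.37 over the leave-outs. For 1-deoxy-D-xylulose-5-phosphate synthase (Sb02g005380.1), the first enzyme of plastid isoprenoid synthesis, WW library a of IS22330 was at 12.7 RPKM beside 0.0645 and 0.935, with 0.0166 to 0.0664 in the DS libraries and 0.281 to 2.16 in all 6 libraries of IS20351. Its interaction of -7.61 (SE 2.05) was -4.40 without that WW library and -7.98 without DS library c.

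**Figure D4:**
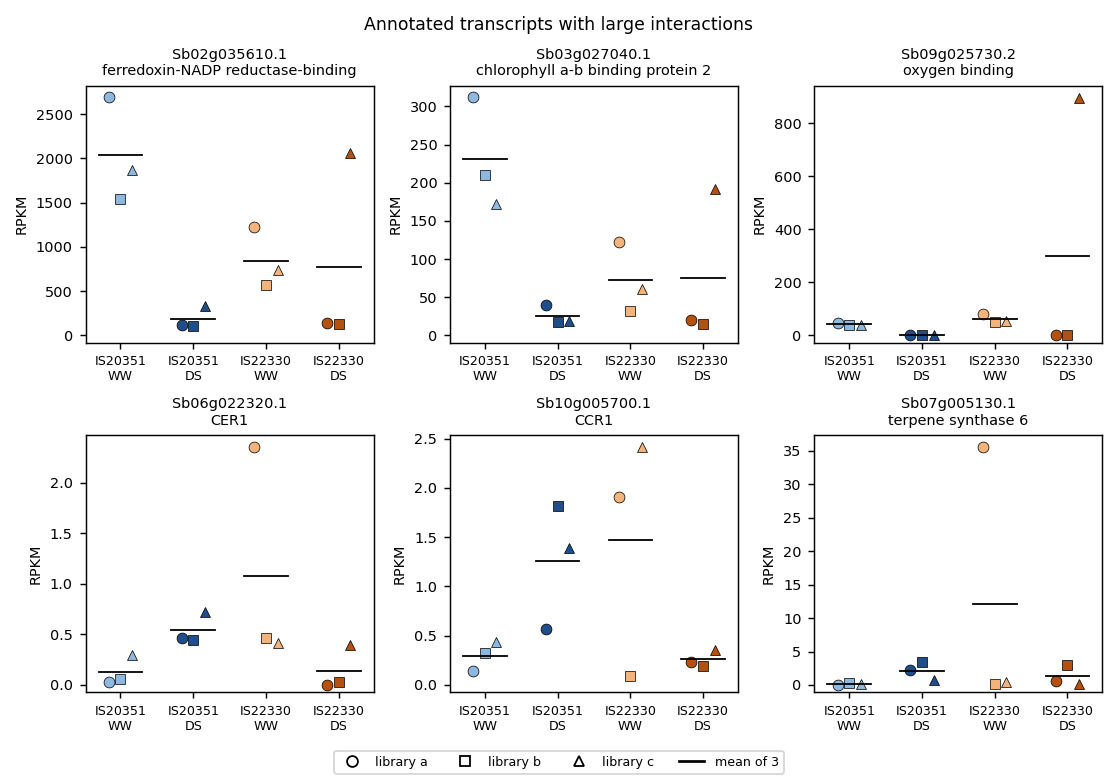
RPKM (y axis) of 6 annotated transcripts in the 12 libraries by group (x axis; circle a, square b, triangle c, line for the mean of 3). In the upper row IS22330 DS library c lies at 2066, 192 and 898 RPKM, far above libraries a and b, and in the lower row WW library a of IS22330 is the highest for CER1 (2.35 RPKM) and terpene synthase 6 (35.5 RPKM).

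Lipid transcripts were mixed, and 4 of 41 rose and 2 fell in IS20351 at an edgeR adjusted p under 0.05 (1.27% and 2.35% of all tested). The 41 tested of 49 had a median interaction of -0.615, which lay between -0.93 and 0.0156 over the leave-outs, with 10 positive and 6 negative at an unadjusted p under 0.05 (3.3% and 2.83% of all tested). Without library c 2 were positive, a share near the 1.89% of all tested, and 5 negative (3.09% of all tested). Monogalactosyldiacylglycerol synthase MGD2 (Sb07g027910.1), which makes galactolipids, was at 4.50, 0.617 and 18.9 RPKM in WW and 0, 0.36 and 0.0373 in DS libraries of IS20351, and at 0 to 0.357 in WW and 0.0188, 0.0375 and 1.46 in DS libraries of IS22330. Its interaction of 7.97 (SE 2.61) was 3.63 without library c. A lecithin:cholesterol acyltransferase family transcript (Sb03g006300.1) was at 0 to 0.323 RPKM in WW and 0.833 to 2.05 in DS libraries of IS20351 and had 4 reads in WW and 0 in DS plants of IS22330, where no fold is given. The acyl-ACP thioesterase FATB (Sb10g023190.1), which releases saturated fatty acids from the plastid, was picked after its values were seen. It was at 36.0, 68.1 and 39.1 RPKM in WW and 198, 112 and 319 in DS libraries of IS20351, where it rose (log2 ratio 2.08, edgeR adjusted p = 0.0489), and at 214, 77.5 and 104 in WW and 141, 125 and 64.8 in DS libraries of IS22330, which overlapped. Its interaction was -2.34 (unadjusted p = 0.0065) and -2.13 without library c (unadjusted p = 0.015).

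The 10 tested transcripts of carbon metabolism, of 12 listed, had a median interaction of -0.695, and -0.489 without library c, with 0 positive and 1 negative at an unadjusted p under 0.05 in both fits (3.3% and 2.83% of all tested with, and 1.89% and 3.09% without library c). The negative one in the full fit was a beta-fructofuranosidase (Sb03g013420.1), which splits sucrose, at 301, 4.49 and 20.4 RPKM in WW and 6.60, 6.58 and 5.21 in DS libraries of IS22330, and 4.29 to 9.08 in all libraries of IS20351. WW library a carried most of its interaction of -4.27 (SE 1.48), which was -1.14 without it and -4.26 without DS library c. The cell wall invertase 4 transcript (Sb03g047060.1) was at 4.04 to 5.75 RPKM in WW and 0.952, 1.44 and 12.3 in DS libraries of IS22330, and its interaction went from 2.85 (SE 1.35) to 0.55 without library c. The alpha-amylase transcript AMY3 (Sb03g032830.1), of starch breakdown, moved the same way in both genotypes, although it was chosen because the study gives it opposite signs. It was at 2.73 to 4.52 RPKM in WW and 8.996 to 19.8 in DS libraries of IS20351, where it rose (log2 ratio 2.07, edgeR adjusted p = 0.041), and at 2.60 to 3.55 in WW and 6.17 to 12.8 in DS libraries of IS22330 (1.54, adjusted p = 0.385). Its interaction was -0.53 (SE 0.59) with all libraries and -1.09 without library c, and lay between -1.09 and -0.23 over the leave-outs.

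**Figure D5:**
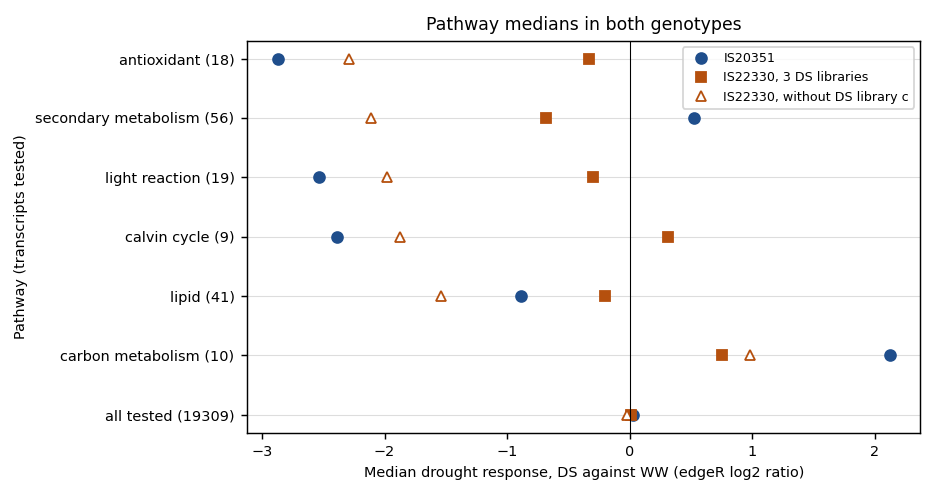
Median drought response (x axis, edgeR log2 ratio, DS against WW) of each pathway list (y axis, with the number of transcripts tested) in IS20351 (circles), in IS22330 (squares) and in IS22330 without DS library c (open triangles). For the light reactions the medians are -2.53, -0.296 and -1.98, and for secondary metabolism 0.527, -0.682 and -2.11.

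The smallest p values without library c of IS22330 DS belonged to Sb02g029940.1 and Sb05g001550.1. Sb02g029940.1 fell in IS20351 from 451, 321 and 259 RPKM in WW to 2.84, 2.12 and 1.81 in DS libraries, a log2 ratio of -7.35 (SE 1.03, edgeR adjusted p = 0.0401). In IS22330 it was at 244, 107 and 132 RPKM in WW and at 17.1, 25.1 and 191 under drought (libraries a, b and c in turn). The levels did not overlap between the genotypes under drought, and those of the WW plants did not overlap either. The interaction was 6.49 (SE 1.21, adjusted p = 0.754) with all libraries and 4.34 without library c (unadjusted p = 3.9e-06, adjusted p = 0.075). Sb05g001550.1 was at 11.4 to 13.1 RPKM in WW and 3.60 to 10.4 in DS libraries of IS20351, and at 10.5 to 12.7 in WW and 0.045, 0.27 and 28.4 in DS libraries of IS22330. Its interaction was 1.11 (SE 1.97) with library c and -5.12 without it. Sb01g038460.1 had the second smallest p with all libraries. It fell in IS20351 from 5.46, 11.8 and 4.29 RPKM to 0.151, 0.0879 and 0 (edgeR adjusted p = 0.0401) and was at 0.32 to 1.61 in WW and 1.16 to 1.51 in DS libraries of IS22330. Its interaction was 7.07 (SE 1.15, adjusted p = 0.414), 6.98 without library c and between 6.52 and 7.91 over the leave-outs. The functions of these 3 transcripts are not given in the sources used here.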

How the data were processed

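Poly-A RNA isolated from the total RNA of 12 samples was sequenced by the authors. They aligned clean reads to the Ensembl Plants release 20 genome with SOAP2 at up to 5 mismatches. The expected counts (mean unique reads) and RPKM values were deposited as means over the 3 libraries of a group, with 0.001 for a library without reads (checked on the values). Reads per library were solved as the whole numbers that give both means, for 27985 of 27989 transcripts; 4 had several solutions and were left out. Libraries carry no replicate number, and nothing pairs them.

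Whole reads were fitted with edgeR 4.0.16 in R 4.3.3 (quasi-likelihood test, TMM, prior count 0.125, all 12 libraries, common biological coefficient of variation 0.47), with limma 3.58.1 and DESeq2 1.42.0 as alternatives and tables made with Python, pandas and numpy. The SE is the log2 value divided by the square root of F. The computations were tested on simulated data. Replicates are biological according to the study.

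Members and lists were chosen with earlier results of these data known. Named transcripts were the largest interactions among opposite transcripts, the largest ratios in the classes of 1 genotype, the smallest p values with and without IS22330 DS library c, the 2 largest interactions of each pathway list and 5 listed transcripts, with annotated ones first. These 5 were chosen because the study gives them opposite signs in the genotypes. Annotations come from the study's pathway lists, with 174 transcripts, 153 of them tested. Lists by description and sequences were not used here, since no identifier matched the RefSeq table.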

Additional observations from a re-analysis of the deposited data

Results flagged for a closer look

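Among the named transcripts, 6 had DS libraries that all moved one way from the WW libraries in 1 genotype and all the other way in the other genotype, and are listed for that reason. The interaction, which tests the difference between the genotypes itself, was 3.50 for Sb03g005860.1 (O-methyltransferase ZRP4), 5.79 for Sb05g024105.1, 4.26 for Sb06g029640.1, 3.71 for Sb05g024100.1, -5.87 for Sb04g034290.1 and -5.55 for Sb09g028430.1. None passed the edgeR test after adjustment, with adjusted p values from 0.414 to 0.797. Over the leave-outs of single libraries the values stayed between 3.21 and 3.91 for Sb03g005860.1, 5.28 and 6.91 for Sb05g024105.1, 3.32 and 5.15 for Sb06g029640.1, 3.29 and 4.01 for Sb05g024100.1, -7.43 and -4.23 for Sb04g034290.1, and -7.69 and -4.99 for Sb09g028430.1. They were chosen from 19309 transcripts for this pattern, which fixes their sign in these leave-outs. DESeq2 called Sb03g005860.1 (adjusted p = 2.9e-05), Sb05g024105.1 (0.0059), Sb06g029640.1 (0.0045), Sb05g024100.1 (8.8e-06) and Sb09g028430.1 (0.0069). It was run on the same libraries by which these transcripts were picked, so its p values are no evidence of their own. Its count of calls over all tested transcripts is given with the interaction test. No check of single outlying values is given beyond the leave-outs and the quality weights of whole libraries.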

How the results depend on the processing

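No paired analysis was possible because the columns carry no replicate numbers. The interaction calls stayed at 0 under RLE factors, both filters, robust dispersions, limma, quality weights, 1 transcript per gene and every leave-out, and were 6 (study thresholds) and 49 (adjusted p under 0.05) in DESeq2. The count at an unadjusted p under 0.05 (1185) was 2545 with quality weights and 782 to 1619 over the leave-outs. Drought calls, 699 in IS20351 and 0 in IS22330, were 3158 and 209 in DESeq2, 7885 and 2336 with quality weights, 434 in IS20351 without a filter, and 0 to 2910 and 0 to 788 over the leave-outs. Opposite transcripts by libraries (60) were 77 to 151 over the leave-outs, where fewer libraries have to be separated. The 348 transcripts of IS20351 only were 523 without a filter, 1392 and 678 with ratios of at least 1 and under 0.5 or at least 2 and under 1, and 136 to 488 over the leave-outs, with 136 without IS22330 DS library c, 103 of them among the 348. The 36 of IS22330 only were 113, 209 and 58 in the same order, and 25 to 122 over the leave-outs, with 118 without WW library b and 122 without DS library c of IS22330. By size, 1034 became 408 with 1 RPKM added, 3850 and 342 at thresholds of 1 and 3, and 900 to 1355 over the leave-outs, and 15 opposite transcripts became 29 and 4 with 0.01 and 1 RPKM added, 167 and 2 at thresholds of 1 and 3, and 7 to 28 over the leave-outs. Without DS library c of IS22330 the interaction changed sign for Sb01g042260.3 (4.30 to -0.19, highest leave-out 8.38; -1.79 with quality weights), Sb05g001550.1 (1.11 to -5.12, highest 1.73; -4.30 with quality weights and -2.15 in limma), Sb09g025730.2 (9.39 to -0.78, highest 10.35; -0.82 with quality weights) and Sb03g027030.1 (4.89 to -1.50, highest 5.87; -0.93 with quality weights), as did the medians of the antioxidant (-0.31, highest 2.72) and Calvin cycle (-0.235, highest 2.39) lists, and the lipid median was 0.0156 without DS library c of IS20351. The other 30 transcripts named by the rules kept their sign, but not all kept their size. The interaction of Sb02g028590.1 went from -2.93 to as little as -0.03 over the leave-outs. For Sb09g005840.1 it went from -1.77 to -0.06, and for Sb04g026320.1 from -3.01 to -0.28. Others, such as Sb03g005860.1 (3.21 to 3.91), changed little. In all, 621 of 638 values kept sign and side of the threshold, and 8 passed it, all in DESeq2. None passed in the full edgeR fit, so the side was nearly fixed beforehand and the 621 do not measure stability of size. The list medians, the drought calls under these settings and the pathway leave-outs were added after seeing the data. The depth, 26398759 or more reads per library, limits transcripts under about 1 RPKM, and 3 libraries per group limit all others.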

Other observations

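The identifiers of the 60 opposite transcripts name their chromosomes. Chromosome 6 carried 13 of them (9 higher and 4 lower in IS22330) with 8.8% of the tested transcripts, and chromosome 4 carried 11 with 11.8%. Between the identifiers Sb06g014670 and Sb06g016770, bounds that were set after the values were seen, 6 of 118 tested transcripts (5.08%) were opposite, beside 0.311% of all tested, and 6 of 6 were higher under drought in IS22330 and lower in IS20351. In the same stretch 11 transcripts had a positive and 3 a negative interaction at an unadjusted p under 0.05 (3.3% and 2.83% of all tested). The 11 include the 6 opposite transcripts, by which the bounds were set, so these counts are no evidence of their own. The median interaction of the stretch was 0.0719, and -0.0501 without IS22330 DS library c. The highest of the 6, Sb06g016530.1, was at 32.5, 33.1 and 58.5 RPKM in WW and at or below 26.8 in DS libraries of IS20351, and at 241, 109 and 124 in WW and 425, 336 and 249 in DS libraries of IS22330. No test was made of this grouping.

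WW library a of IS22330 was the highest of its group for 28 of the 56 tested transcripts of secondary metabolism, beside 35.7% of all tested transcripts. Without it the median interaction of that list was -0.925, with 5 negative and 7 positive at an unadjusted p under 0.05. Of all 19309 tested transcripts 580 were negative and 641 positive in that fit. The full fit had 10 negative and 4 positive in the list (2.83% negative and 3.3% positive of all tested). The part of WW library a in the negative interactions of the list was not tested.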
